A study of Rattus norvegicus with 7 samples.

Results

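The 36 genes described here encode proteins of the cytosolic ribosome. They were chosen as the rat genes named Rpl or Rps with a number, or Rplp0, Rplp1, Rplp2 or Rpsa, without the S6 kinase genes, whose RefSeq transcript accession is carried by a transcript probe of the array. They are 36 of the 6046 genes that could be named on the array, 21 of the large and 15 of the small subunit, and 39 probes represent them. Where a gene had more than 1 probe, the one with the highest mean signal was used.

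RNA from whole brain was measured on 1-colour oligonucleotide arrays in adult male rats of 2 lines of Wistar stock, 1 rat to an array. The P line (alcohol preferring) and the NP line (alcohol non-preferring) were selectively bred for high and low voluntary alcohol drinking. All rats were alcohol naïve and doubly housed, and the labels name no transgene and no treatment. There were 4 P arrays (P 1 to P 4) and 3 NP arrays (NP 2 to NP 4) after the submitters dropped 1 NP array in quality control.

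Each cytosolic ribosome joins a small subunit, which reads the messenger RNA, to a large subunit, which forms the peptide bond, and each subunit is built on ribosomal RNA with many proteins that are needed in equal numbers. Transcripts of ribosomal proteins are among the most abundant in most cells, neurons and glia included. Most of them begin with a cytosine followed by a run of pyrimidines, the terminal oligopyrimidine (TOP) tract, through which the growth-controlling kinase mTOR regulates their translation.

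The array headers carry a date field with 3 values and a project field with 2 entries. NP 2, NP 3, P 1 and P 2 shared date 1 and project entry 1. NP 4 had date 2, and P 3 and P 4 had date 3, all 3 arrays with project entry 2. What the date and the entry record is not stated. Above-background signal was seen for 26361 to 27608 of the 33849 transcript probes in P (77.9% to 81.6%) and for 27577 to 29091 in NP (81.5% to 85.9%). Precision is limited by how few arrays there are. No 2 arrays held identical values, and every pair correlated at 0.947 to 0.9878 over the probes. Markers of neurons, astrocytes, oligodendrocytes and microglia were above background on all 7 arrays for 4, 7, 6 and 7 genes of the lists of 10, 7, 7 and 8.

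Of the 36 genes, 31 were above background with a value on all 7 arrays. The other 5 each lacked 1 array through a quality flag: Rpl15 lacked P 3, Rpl6 lacked P 1, Rps26 lacked NP 2, Rps29 lacked P 4 and Rpsa lacked NP 4. A second Rpl35a probe was masked on all 7 arrays and gave no value. All levels below are log2 normalized signals, and levels of different probes were not compared. Under the naming rule used here, which covers more than these 36 genes, the RefSeq gene table lists 839 pseudogenes and 298 protein-coding genes. The probes were not checked against pseudogene copies, so a signal may include RNA of a copy. In whole brain RNA, fewer cells of a type and less RNA per cell cannot be told apart.

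Over all 7 arrays, no ribosomal protein gene passed the test between P and NP, and the largest differences were those of Rps3a and Rpl21. By limma, 0 of 36 genes were lower and 0 higher in P at an adjusted p under 0.05, where 0.155% of all 29003 probes tested were lower and 0.134% higher. At an unadjusted p under 0.05 there were 3 of 36 genes, against 11.5% of all probes. The differences (P minus NP) ran from -0.64 to 0.34 with a median of -0.10, and 22 of 36 lay below 0. The median over all named genes was 0.03.

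Among genes of the small subunit, Rps3a, whose protein lies near the exit of the messenger RNA channel, read 11.87, 11.95 and 11.86 in NP 2 to NP 4 and 11.01, 10.69, 11.59 and 11.72 in P 1 to P 4. All P values lay under all NP values, with P 1 and P 2 farthest below. Its difference was -0.64 ± 0.23 (difference ± SE, adjusted p = 0.36 by limma), which put the P mean at 64.1% of the NP mean. Rps3a was the only gene of the 31 with 7 values whose P values all lay lower, and Rps15 the only one whose P values all lay higher. Over all probes the groups did not overlap in these directions for 6.37% and 6.91%.

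Rps15, whose tail reaches toward the decoding site, read 12.25, 12.38 and 12.27 in NP and 12.56, 12.57, 12.41 and 12.45 in P, with a difference of 0.20 ± 0.11 (adjusted p = 0.492 by limma). Rpsa, also known as the laminin receptor precursor, read 11.62 and 11.42 in NP 2 and NP 3 and 11.90, 11.68, 11.81 and 11.95 in P. The P values lay above both NP values, and the third NP array gave none. Its difference was 0.32 ± 0.14 (adjusted p = 0.432 by limma).

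Among genes of the large subunit, Rpl21 read 11.20, 11.29 and 10.91 in NP and 10.42, 9.95, 10.64 and 11.04 in P. P 4 alone lay within the NP values. The difference was -0.62 ± 0.22 (adjusted p = 0.37 by limma), a P mean of 65.2% of the NP mean. Rpl22, an RNA-binding protein with a close paralogue, read 10.00, 9.97 and 9.87 in NP and 9.69, 9.31, 9.79 and 9.91 in P, with a difference of -0.27 ± 0.15 (adjusted p = 0.49 by limma). P 4 was again the array above the lowest NP value.

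**Figure D1:**
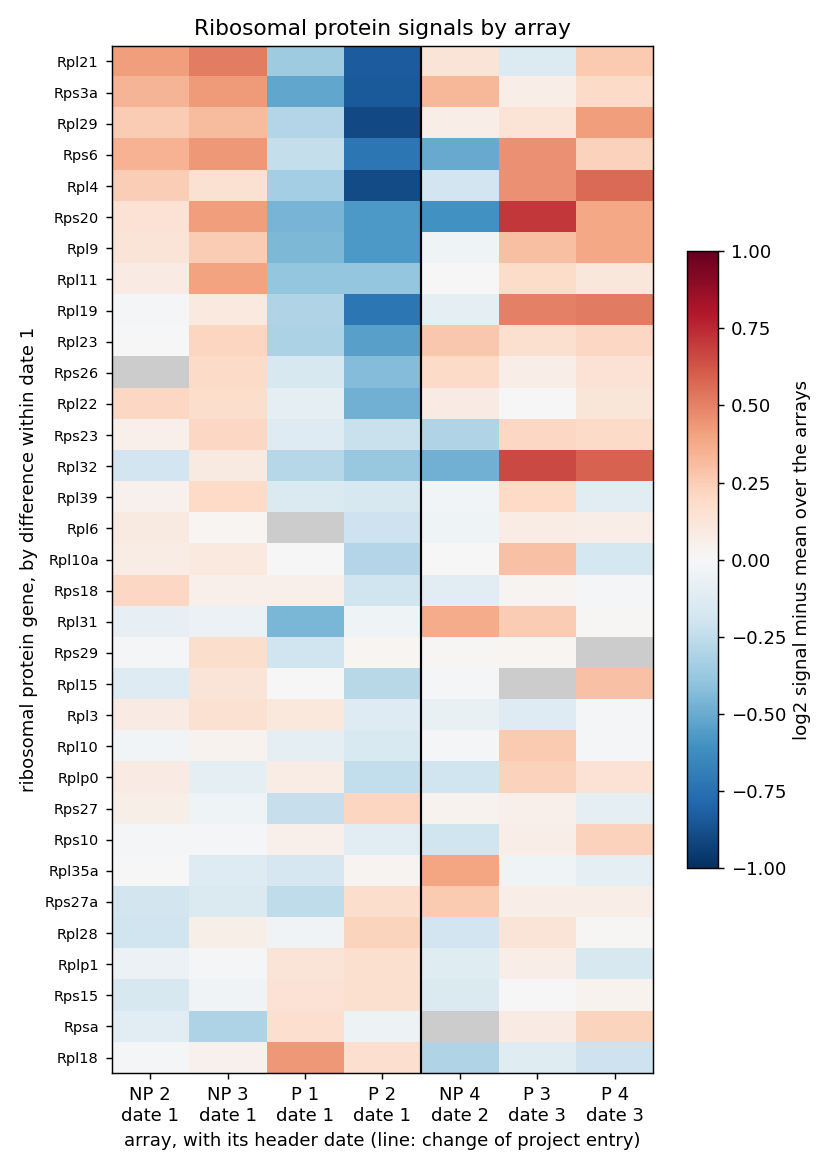
Log2 signal of each ribosomal protein gene reported by name (rows) on each array (columns, with header date), as the difference from that gene's mean over the arrays with a value; grey marks a missing value and the vertical line separates the 2 project entries. Rows are ordered by the P minus NP difference within date 1, and the upper rows show P 1 and P 2 low against NP 2, NP 3, P 3 and P 4.

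Within date 1, which both lines share, 10 ribosomal protein genes were lower in P 1 and P 2 than in NP 2 and NP 3. Among them were Rps3a, Rps20 and Rps6 of the small subunit and Rpl21, Rpl29, Rpl4, Rpl9 and Rpl11 of the large subunit, with P at 47.8% to 64.9% of NP. By limma, 10 of 36 (27.8%) were lower and 0 higher, where 4.59% of all 28919 probes tested were lower and 1.88% higher. Of the 21770 probes above background on all 7 arrays, tested alone, 8.26% were lower and 4.21% higher. Of the 36 genes, 31 had such a probe. An unadjusted p under 0.05 was passed by 15 of 36, a threshold at which the share of all probes was not counted. The 36 differences ran from -1.06 to 0.28 with a median of -0.27, and 30 lay below 0. Over all named genes the median was 0.05, and 42.4% lay below 0, against 83.3% of the ribosomal protein genes. With both lines at 2 arrays, 20 of the 34 genes with all 4 values had both P values under both NP values, against 27.2% of all probes, and 4 had both above, against 31.7%.

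The calls depended on P 2 and on the background correction. Without P 2, 1 of the genes was called (Rps3a), and with plain background subtraction or the authors' deposited log2 values 0 were, while the median over the genes stayed between -0.32 and -0.22 in all alternatives. Over all probes the calls within date 1 were 1326 lower and 544 higher, against 190 (0.661%) and 65 without P 2, 710 and 167 with median scaling, 12 and 15 with plain subtraction and 18 and 18 with the deposited values.

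In the small subunit, Rps3a differed by -1.06 ± 0.14 within date 1 (adjusted p = 0.0094 by limma). Its values on P 3 and P 4 were nearer to the NP values than those on P 1 and P 2.

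Rps20, which is ubiquitinated when ribosomes collide, read 10.52 and 10.79 in NP 2 and NP 3 and 9.91 and 9.80 in P 1 and P 2. Its difference was -0.80 ± 0.14 (adjusted p = 0.0206 by limma). NP 4 read 9.77, the lowest Rps20 value of the 7, and P 3 and P 4 read 11.08 and 10.76. Rps6, the substrate that gave the S6 kinases their name, read 11.29 and 11.38 in NP 2 and NP 3 and 10.71 and 10.22 in P 1 and P 2, a difference of -0.87 ± 0.17 (adjusted p = 0.0263 by limma). Here too NP 4 was low, at 10.44, and P 3 and P 4 were at 11.40 and 11.18.

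In the large subunit, Rpl21 differed by -1.06 ± 0.17 (adjusted p = 0.0148 by limma). Rpl29, a small basic protein known to bind heparin, read 9.80 and 9.86 in NP 2 and NP 3 and 9.25 and 8.64 in P 1 and P 2, a difference of -0.88 ± 0.19 (adjusted p = 0.0327 by limma). P 2 was the lower of the P arrays of this date, while NP 4, P 3 and P 4 read 9.61, 9.68 and 9.96. Rpl4, which lines the tunnel through which the new peptide leaves, read 10.49 and 10.39 in NP 2 and NP 3 and 9.90 and 9.35 in P 1 and P 2. Its difference was -0.82 ± 0.18 (adjusted p = 0.0343 by limma), and NP 4, P 3 and P 4 read 10.05, 10.70 and 10.81.

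Rpl9, which lies near the site where translation factors bind, read 11.90 and 12.03 in NP 2 and NP 3 and 11.32 and 11.20 in P 1 and P 2. The Rpl9 difference was -0.70 ± 0.13 (adjusted p = 0.0234 by limma), with 11.73 in NP 4 and 12.07 and 12.16 in P 3 and P 4. Rpl11, which with the 5S particle binds the p53 regulator Mdm2, read 7.53 and 7.85 in NP 2 and NP 3 and 7.06 on both P 1 and P 2. The difference was -0.62 ± 0.14 (adjusted p = 0.0388 by limma), and NP 4, P 3 and P 4 read 7.45, 7.63 and 7.56. For these 5 large-subunit genes, as for the 5 of the small subunit, the values on P 3 and P 4 were above those on P 1 and P 2.

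**Figure D2:**
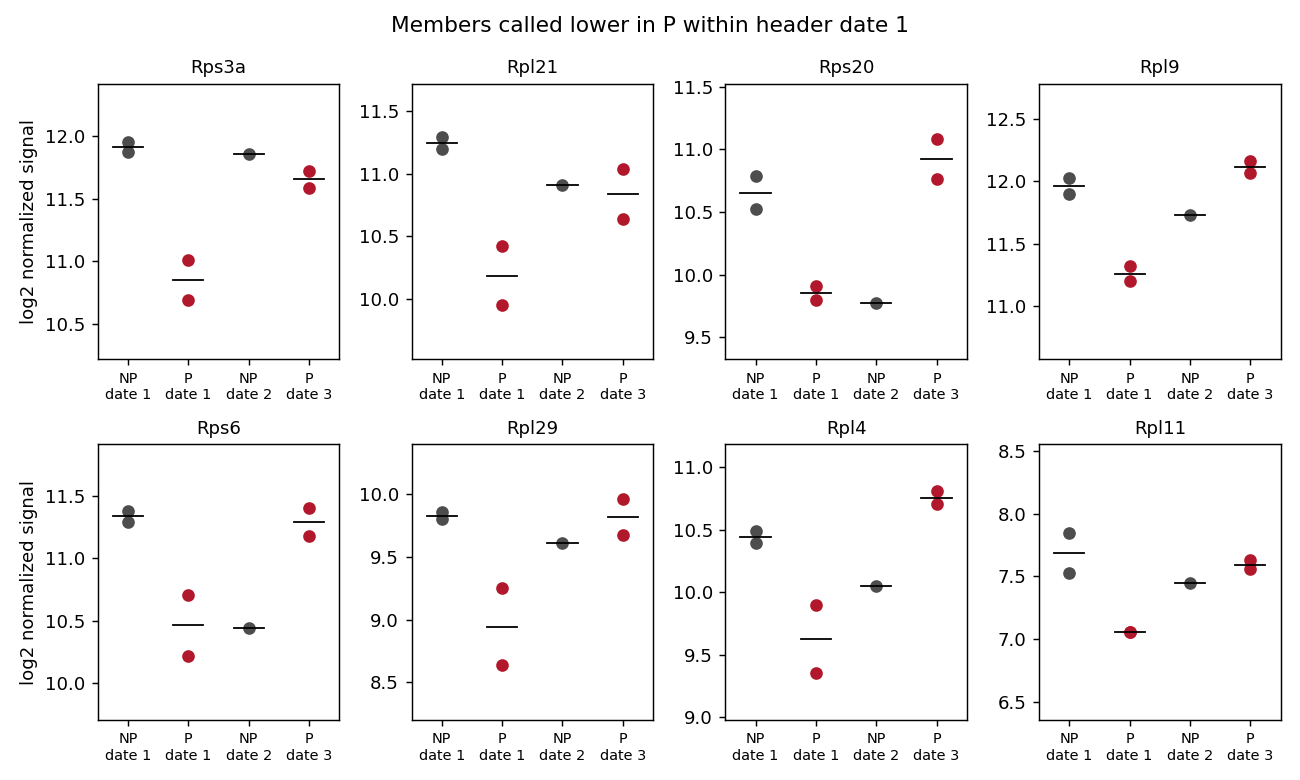
Log2 normalized signal of the named genes with lower values in P than in NP within date 1, by line and header date; each point is an array, red for P and grey for NP, and bars are means of the arrays shown. P of date 1 lies below NP of date 1 in every panel, and P of date 3 lies above P of date 1.

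The start of the transcript was compared between genes that were lower within date 1 and genes that were not, since the TOP tract is the feature these transcripts share. RefSeq (GRCr8) promoter sequences were at hand for 29 of the 36 genes, 7 of the 10 lower genes among them. Each line gives 20 bases before and 20 from the annotated start, with the pyrimidine run through the start in capitals. The lower genes were as follows.
Rps3a, chr2:173827023-173827062, minus strand: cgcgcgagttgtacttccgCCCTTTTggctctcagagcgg
Rpl21, chr12:13386134-13386173, minus strand: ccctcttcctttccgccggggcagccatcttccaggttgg
Rpl9, chr14:43247570-43247609, plus strand: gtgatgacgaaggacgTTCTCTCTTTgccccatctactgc
Rps6, chr5:106420521-106420560, minus strand: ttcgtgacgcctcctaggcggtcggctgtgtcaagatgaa
Rpl29, chr8:115947623-115947662, plus strand: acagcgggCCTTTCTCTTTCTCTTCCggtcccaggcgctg
Rpl4, chr8:73566457-73566496, plus strand: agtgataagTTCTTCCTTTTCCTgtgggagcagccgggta
Rpl11, chr5:153560783-153560822, minus strand: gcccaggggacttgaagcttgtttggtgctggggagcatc
The 5 genes with the smallest differences within date 1 among the others with a sequence are shown for comparison.
Rpl35a, chr11:81235002-81235041, minus strand: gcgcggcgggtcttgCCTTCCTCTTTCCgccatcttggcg
Rps10, chr20:5700725-5700764, minus strand: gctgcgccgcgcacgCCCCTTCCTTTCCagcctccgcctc
Rps27, chr2:177964587-177964626, minus strand: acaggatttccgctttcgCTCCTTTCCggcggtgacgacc
Rplp0, chr12:46718371-46718410, minus strand: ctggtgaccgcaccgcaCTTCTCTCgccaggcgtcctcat
Rpl10, chrX:157205830-157205869, plus strand: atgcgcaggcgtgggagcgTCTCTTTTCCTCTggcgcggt

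Of the 29 genes, 16 (55.2%) had a cytosine at the annotated start followed by at least 4 pyrimidines, against 854 of the 27457 genes with a sequence (3.11%). The 16 were 2 of the 7 lower genes, Rps3a and Rpl9, and 14 of the 22 others. A run of at least 8 pyrimidines anywhere in the 40 bases was held by 23 of 29 (79.3%), against 17.2% of all genes, and by 4 of the 7 lower genes and 19 of the 22 others. In Rpl29 and Rpl4 the annotated start lay inside a long pyrimidine run but not at a cytosine with such a tract, and in Rpl21, Rps6 and Rpl11 no pyrimidine run passed through the start. The tract was counted at the annotated start, which can lie some bases from the start used in brain.

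Over the whole 300 bases of each sequence and on both strands, the ETS core CCGGAAG was found in 24.1% of the 29 genes against 9.63% of all genes. The GC box GGGCGG was found in 55.2% against 36.0%, the YY1 core AAGATGGC in 6.90% against 3.62%, and the TATA box TATAAA in 10.3% against 15.3%. Among the 7 lower genes these motifs were held by 3, 4, 1 and 0, and among the 22 others by 4, 12, 1 and 3. These are matches of letters and no record of binding.

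The P arrays differed among themselves in these genes. P 1 and P 2, of date 1, were lower than P 3 and P 4, of date 3, for 12 of the 36 genes (33.3%) and higher for 0, where 7.53% of all 28923 probes tested were lower and 6.31% higher by limma, and 17 genes passed an unadjusted p under 0.05. The share of all probes at that unadjusted threshold was not counted here. Of the 21770 probes above background on all 7 arrays, tested alone, 10.3% were lower and 9.1% higher by adjusted p. Among the 12 were Rps20, Rps3a and Rps6 of the small subunit and Rpl32, Rpl19, Rpl9, Rpl4, Rpl29, Rpl23 and Rpl11 of the large subunit. The differences (date 1 minus date 3) had a median of -0.31, against 0.05 over all named genes. Of the 33 genes with all 4 values, 22 had both date 1 values lower, against 27.9% of all probes, and 3 had both higher, against 32.2%. Without P 2, and with plain subtraction or the deposited values, 0 of these genes were called, and over all probes 1, 0 and 1 were lower and 1, 0 and 1 higher. In this comparison the header date, the project entry and the individual rats cannot be told apart, and it shares P 1 and P 2 with the comparison within date 1.

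Among the small-subunit genes, Rps20 differed by -1.06 ± 0.16 between the P arrays of the 2 dates (adjusted p = 0.00586 by limma) and Rps3a by -0.81 ± 0.16 (adjusted p = 0.0116 by limma). Rps6 differed by -0.83 ± 0.18 (adjusted p = 0.0183 by limma). These genes were also lower within date 1, a comparison with the same P 1 and P 2 arrays.

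Of the large-subunit genes, 3 were lower here without being called within date 1. Rpl32 read 8.84 and 8.74 in P 1 and P 2 and 9.78 and 9.71 in P 3 and P 4, against 8.93, 9.21 and 8.64 in NP 2 to NP 4. Only P 3 and P 4 stood apart, and the difference between the P dates was -0.96 ± 0.14 (adjusted p = 0.0058 by limma). Rpl19, which reaches from the large to the small subunit, read 7.70 and 7.28 in P 1 and P 2, 8.50 and 8.52 in P 3 and P 4, and 7.99, 8.10 and 7.91 in NP, so that the NP values lay between the P dates. Rpl19 differed by -1.02 ± 0.16 between the P dates (adjusted p = 0.00693 by limma) and by 0.00 ± 0.28 between the lines over 7 arrays (adjusted p = 1.00 by limma).

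Rpl23, on the face of the large subunit that meets the small one, read 10.88 and 10.65 in P 1 and P 2, 11.35 and 11.40 in P 3 and P 4, and 11.20, 11.41 and 11.46 in NP. P 3 and P 4 lay within the NP values, and the P dates differed by -0.61 ± 0.15 (adjusted p = 0.0244 by limma). Rpl9 differed by -0.86 ± 0.14 (adjusted p = 0.00696 by limma), Rpl4 by -1.13 ± 0.18 (adjusted p = 0.00716 by limma), Rpl29 by -0.87 ± 0.20 (adjusted p = 0.0227 by limma) and Rpl11 by -0.53 ± 0.14 (adjusted p = 0.0321 by limma).

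The project entry holds arrays of both lines in each of its values, and P minus NP was therefore also read within each entry. In entry 2, however, NP 4 has date 2 and P 3 and P 4 have date 3, so line and date cannot be told apart there. In entry 2, which holds P 3, P 4 and NP 4, 0 of 35 genes were lower in P and 2 (5.71%) were higher, where 0.493% of all 28619 probes tested were lower and 1.33% higher by limma, and 9 passed an unadjusted p under 0.05. The genes were Rpl32, by 1.11 ± 0.17 (adjusted p = 0.0126 by limma), and Rps20, by 1.15 ± 0.19 (adjusted p = 0.0162 by limma). The median over the 35 genes was 0.14, against 0.03 over all named genes. The share of all probes at the unadjusted threshold was not counted within entry 2, between the entries or with the entry as a block. NP 4 is the only NP array of this entry, so its own spread was taken from the other cells, and Rpsa could not be fitted.

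P minus NP in entry 2, against NP 4 alone, was more positive than in entry 1 for 6 of 35 genes (17.1%) by the interaction term and less positive for 0, where 0.536% of the 28541 probes tested were called in that direction and 0.0946% in the other, and 13 genes passed an unadjusted p under 0.05. The difference between entries was 1.95 ± 0.24 for Rps20 (adjusted p = 0.0135 by limma), 1.72 ± 0.27 for Rps6 (adjusted p = 0.0325) and 1.39 ± 0.22 for Rpl32 (adjusted p = 0.0325). Among the others, it was 1.52 ± 0.28 for Rpl4 (adjusted p = 0.0465 by limma) and 1.09 ± 0.20 for Rpl9 (adjusted p = 0.0488). For Rps3a and Rpl21 it was 0.86 ± 0.23 and 0.99 ± 0.29 (adjusted p = 0.107 and 0.13 by limma), and in entry 2 alone these genes differed by -0.20 ± 0.18 and -0.06 ± 0.23 (adjusted p = 0.556 and 0.906). Each such value rests on NP 4 as 1 array, which held the lowest Rps20 and Rpl32 values of the 7, and a difference between entries cannot be told apart from one of this array or of the dates. With the project entry as a block, 0 of 36 genes were called in either direction (0.497% of all probes lower and 0.341% higher, 4 genes at an unadjusted p under 0.05), and the smallest adjusted p was 0.0836 for Rps3a, at -0.72 ± 0.18.

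**Figure D3:**
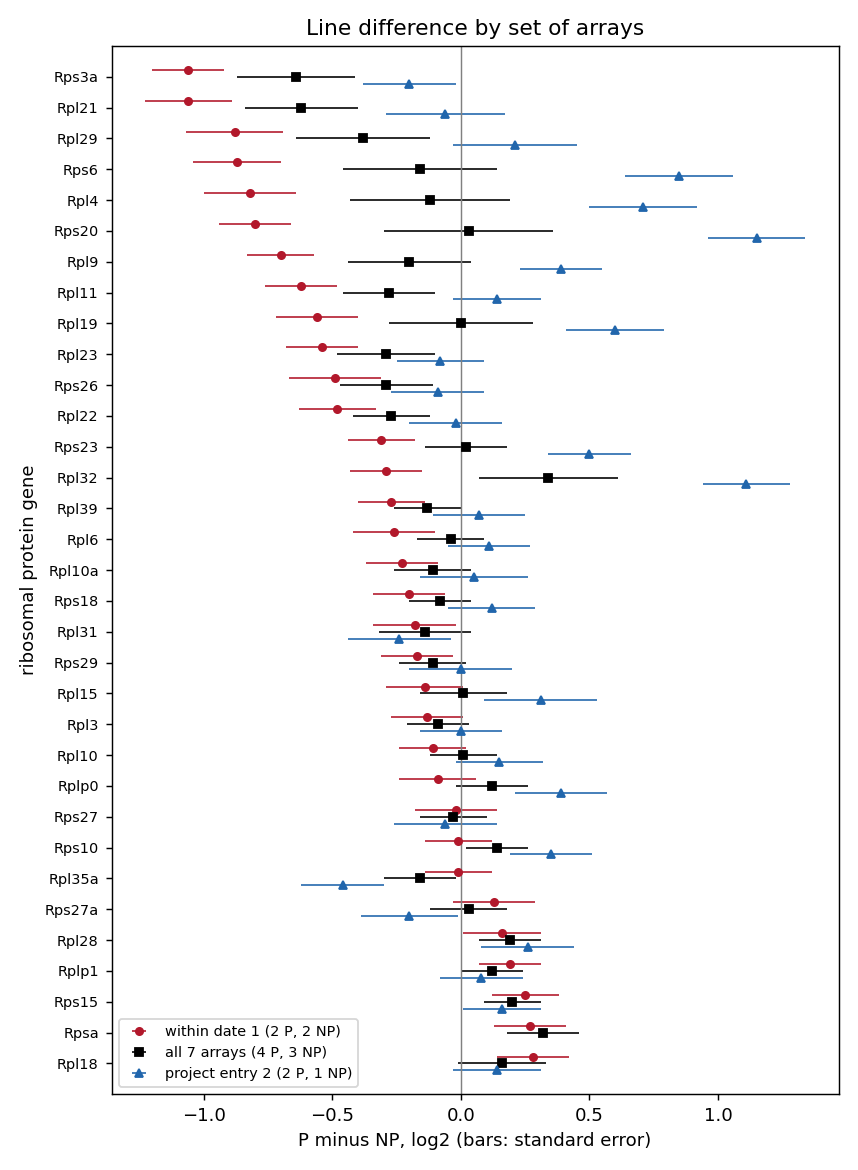
P minus NP difference in log2 (x axis, bars are standard errors) for the ribosomal protein genes reported by name (y axis) within date 1, over all 7 arrays and within project entry 2, from limma fits. Rps20 is at -0.80 within date 1 and at 1.15 within entry 2, and Rps3a at -1.06 and -0.20; Rpsa has no value for entry 2.

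Not all genes differed between the P dates or within date 1. Rps27, a zinc-binding small-subunit protein, read 12.19, 12.09 and 12.17 in NP and 11.90, 12.35, 12.18 and 12.04 in P, and differed by -0.02 ± 0.16 within date 1 and 0.01 ± 0.17 between the P dates (adjusted p = 0.963 and 0.966 by limma). The P values spread to both sides of the NP values. Rps10, at the head of the small subunit, read 10.72, 10.73 and 10.54 in NP and 10.79, 10.63, 10.81 and 10.97 in P. It differed by -0.01 ± 0.13 within date 1 and by -0.18 ± 0.14 between the P dates (adjusted p = 0.961 and 0.438 by limma). Its P 1 and P 2 values both lay under those of P 3 and P 4. Rpl3, close to the peptidyl transferase centre, read 11.40, 11.47 and 11.24 in NP and 11.42, 11.19, 11.19 and 11.30 in P, a difference of -0.13 ± 0.14 within date 1 and 0.06 ± 0.15 between the P dates (adjusted p = 0.568 and 0.827 by limma). For these genes the lines overlapped within date 1.

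On the other side of 0, Rpl18 read 11.04, 11.10 and 10.75 in NP and 11.49, 11.22, 10.93 and 10.85 in P. It had its highest values on P 1 and P 2, where the genes lower within date 1 read below NP of that date. Rpl18 differed by 0.28 ± 0.14 within date 1 and 0.46 ± 0.15 between the P dates (adjusted p = 0.217 and 0.0656 by limma). Rplp1, of the stalk that recruits translation factors, read 12.01, 12.05 and 11.95 in NP and 12.20, 12.23, 12.14 and 11.91 in P. Together with Rps15 and Rpsa these were the 4 genes with both P values above both NP values within date 1, and none of them passed the test there.

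Rps29, a zinc-binding protein of the small subunit, read 13.07, 13.27 and 13.10 in NP and 12.89, 13.11 and 13.11 in P 1 to P 3. Rpl6, of the large subunit, read 12.77, 12.70 and 12.64 in NP and 12.48, 12.76 and 12.75 in P 2 to P 4. Rpl10, which joins late in maturation of the large subunit, read 12.48, 12.54 and 12.49 in NP and 12.42, 12.36, 12.77 and 12.50 in P. P 2 held the lowest value of Rpl10 and of Rpl6, and P 1 that of Rps29. Rps23, a protein of the decoding centre, read 7.43, 7.59 and 7.08 in NP and 7.25, 7.16, 7.59 and 7.57 in P. Rpl35a, mutated in some patients with Diamond-Blackfan anaemia, read 7.03, 6.90 and 7.42 in NP and 6.86, 7.05, 6.99 and 6.93 in P. For these 5 genes no comparison of the lines passed the test.

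Of the genes with a second usable probe, Rplp1 differed by 0.19 ± 0.12 within date 1 on the probe used and by 0.00 ± 0.13 on the other. Rpsa differed by 0.27 ± 0.14 on the probe used and by -0.23 ± 0.17 on the other (adjusted p = 0.246 and 0.414 by limma). Between the P dates the second Rpsa probe was lower in date 1 by -0.61 ± 0.17 (adjusted p = 0.0447 by limma), where the probe used gave -0.09 ± 0.15 (adjusted p = 0.714). The 2 Rpsa probes therefore disagreed.

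In each subunit 5 genes were lower within date 1. In the large subunit 5 of 21 genes were lower, with a median difference of -0.26, and in the small subunit 5 of 15, with a median of -0.28. Between the P dates 7 of 21 and 5 of 15 were lower, with medians of -0.35 and -0.28. No difference between the subunits was tested. Over 7 arrays the medians were -0.11 and -0.08.

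The share of the ribosomal protein probes was taken of the linear normalized signal summed over all kept probes with a value on all 7 arrays. Summed over the 31 genes with 7 values, these probes held 0.570% and 0.593% of that signal in NP 2 and NP 3 and 0.507% and 0.483% in P 1 and P 2. In project entry 2 the share was 0.544% in NP 4 and 0.610% and 0.583% in P 3 and P 4. The P line thus held both the lowest shares, on P 1 and P 2, and the highest, on P 3. The median log2 signal of the 31 genes was 10.83, 10.99 and 10.54 in NP and 10.68, 10.36, 10.93 and 10.85 in P.

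**Figure D4:**
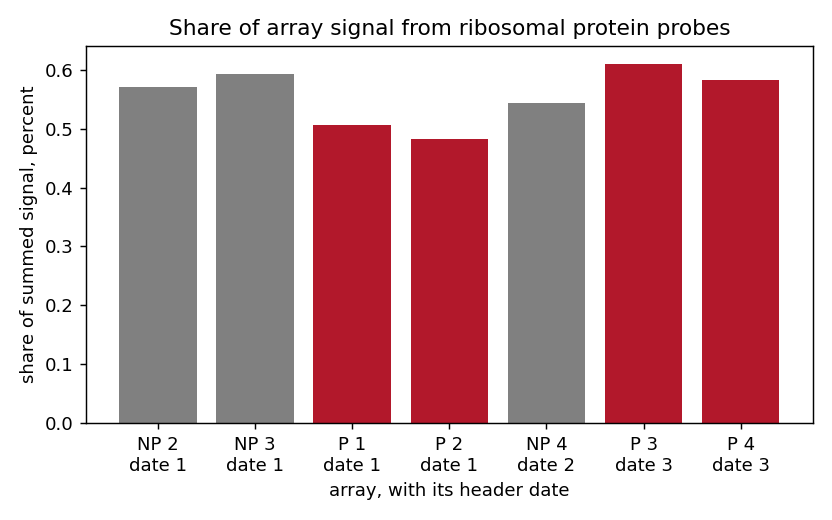
Share of the linear normalized signal, in percent, held by the probes of the 31 ribosomal protein genes with 7 values, for each array with its header date. The signal is summed over the kept probes with a value on all 7 arrays. Grey bars are NP and red bars P, 1 array each. P 1 and P 2 are at 0.507% and 0.483%, and the other 5 arrays lie between 0.544% and 0.610%.

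Other genes of the translation machinery were read from lists. Over 7 arrays none of the 6 lists had a called gene by limma, with 4 of 15 mitochondrial ribosomal proteins, 2 of 19 initiation factors, 1 of 6 elongation and release factors, 1 of 23 biogenesis factors, 2 of 13 other TOP transcripts and 2 of 15 genes of growth signalling to S6 at an unadjusted p under 0.05. Of all probes, 11.5% passed that threshold. Within date 1, where 4.59% of all probes were lower and 1.88% higher, 4 of 19 initiation factors were lower and 0 higher, with a median of -0.07. The lower ones were Eif4a2, an RNA helicase that unwinds the messenger RNA, by -1.13 ± 0.20, Eif2s2, the beta subunit of the factor that brings the initiator tRNA, by -0.99 ± 0.16, and Eif3e and Eif3h, subunits of the scaffold factor, by -0.87 ± 0.18 and -0.74 ± 0.14 (adjusted p = 0.0213, 0.0161, 0.0321 and 0.0275 by limma). Etf1, the release factor that reads stop codons, was lower by -0.66 ± 0.15 (adjusted p = 0.0371), 1 of 6 elongation and release factors, whose median was 0.14.

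Ribosome biogenesis factors went both ways within date 1, with 4 of 23 lower, 2 higher and a median of -0.18. Of all probes, 4.59% were lower and 1.88% higher there. Ncl, the nucleolar protein nucleolin, was lower by -1.05 ± 0.22 (adjusted p = 0.0309 by limma), beside Gnl2 and Gnl3. Nop58, of the particles that methylate ribosomal RNA, was lower by -1.09 ± 0.16 (adjusted p = 0.0148 by limma), a value that rests on P 2 alone (8.64), since P 1 gave none. Bop1 and Bysl, which act in maturation of the large and the small subunit, were higher by 0.64 ± 0.15 and 0.60 ± 0.14 (adjusted p = 0.0429 and 0.0413 by limma). Of the 15 mitochondrial ribosomal proteins 3 were lower (Mrpl41, Mrpl16 and Mrpl46, by -0.83 ± 0.21, -0.71 ± 0.13 and -0.69 ± 0.15) and 0 higher, with a median of -0.13. Of the 13 other TOP transcripts 2 were lower, the same Eif3e and Eif3h, with a median of -0.34, and of the 15 genes of growth signalling to S6, 0 were called in either direction and 6 passed an unadjusted p under 0.05, with a median of 0.02. The share of all probes at that unadjusted threshold was not counted within date 1.

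Between the P dates, 6 of 19 initiation factors, 5 of 23 biogenesis factors, 3 of 15 mitochondrial ribosomal proteins and 3 of 13 other TOP transcripts were lower in date 1, where 7.53% of all probes were lower and 6.31% higher. Higher in date 1 were 3 of the biogenesis factors (Bop1, Utp4 and Bysl, by 0.60 ± 0.16, 0.56 ± 0.14 and 0.52 ± 0.15) and 1 mitochondrial ribosomal protein (Mrpl38, by 0.57 ± 0.15). Npm1, a nucleolar chaperone of ribosome assembly with a TOP tract, was lower by -0.92 ± 0.18 between the P dates and higher in P by 1.16 ± 0.20 within entry 2 (adjusted p = 0.0158 and 0.025 by limma). P 4 gave no Npm1 value, so P 3 alone (10.51) stood for P of date 3 and was set against NP 4 alone (9.35) in entry 2, with the spread taken from the other arrays. Among the 15 genes of growth signalling, Tsc2, an inhibitor of mTOR signalling, was higher in date 1 by 0.99 ± 0.14, Rps6ka1, a kinase of Rps6, by 0.90 ± 0.15 and Mtor by 0.58 ± 0.17 (adjusted p = 0.00577, 0.00696 and 0.0455 by limma). Pdcd4, an inhibitor of Eif4a, was lower by -0.72 ± 0.15 (adjusted p = 0.0154). These comparisons share the P 1 and P 2, or P 3 and P 4, arrays with those above.

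**Figure D5:**
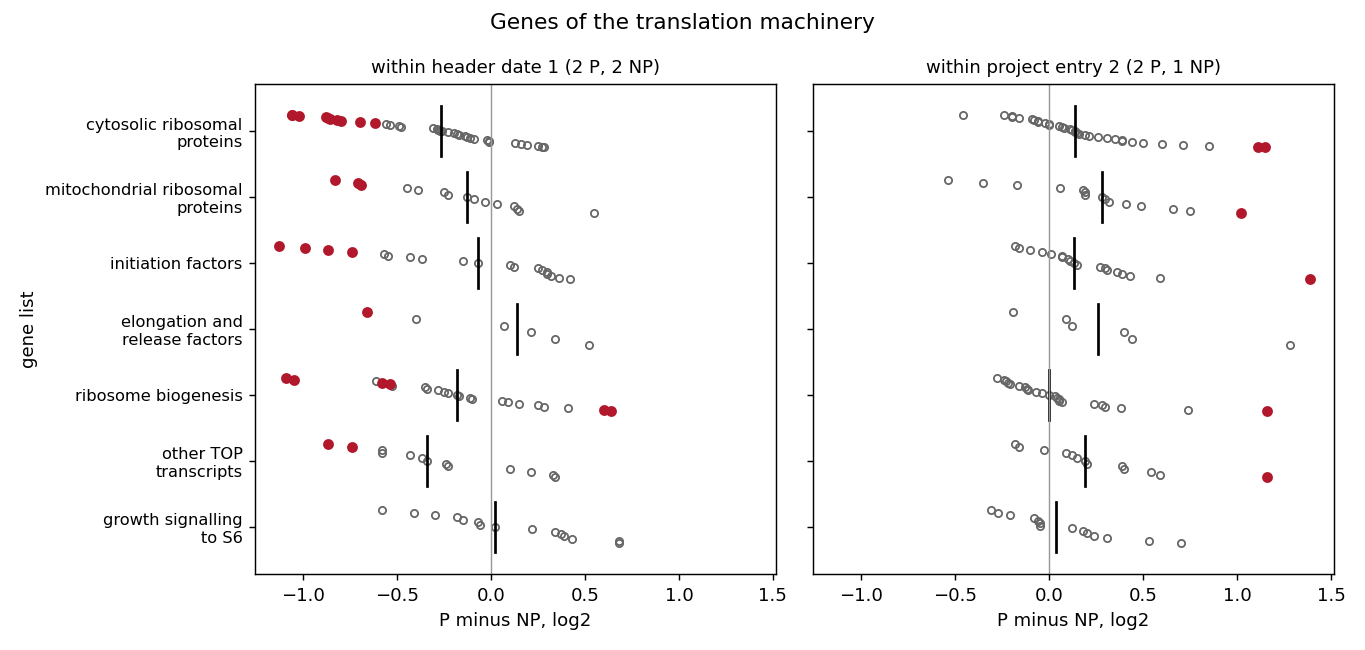
P minus NP difference in log2 (x axis) of each gene in the lists of the translation machinery (y axis) within date 1 (left) and within project entry 2 (right); filled red points passed an adjusted p under 0.05 by limma, open points did not, and vertical bars are list medians. The cytosolic ribosomal proteins have medians of -0.27 and 0.14, and their filled points lie below 0 on the left and above 0 on the right.

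Cell type markers were read on the same arrays. No marker was called over 7 arrays. Within date 1, Aif1, a microglial marker, was lower in P by -1.23 ± 0.19 and Nefm, a neurofilament, by -0.81 ± 0.17 (adjusted p = 0.0138 and 0.0295 by limma), 1 of 7 microglial and 1 of 5 neuronal markers tested. Most other markers of these 2 lists went the other way. Above 0 lay 5 of the 7 microglial markers (median 0.04) and 3 of the 5 neuronal markers (median 0.06). Of all probes, 4.59% were lower within date 1. None of the markers tested for astrocytes (7), oligodendrocytes (7), choroid plexus (4), endothelium (3), erythroid cells (3) or pituitary and pineal (4) was called there. The summed signal of 5 neuronal markers was 13850 and 12422 in NP 2 and NP 3 and 13751 and 13515 in P 1 and P 2, and that of 7 microglial markers 5346 and 5478 against 5254 and 5307. The sum of 7 astrocyte markers was 14156 and 14022 against 13817 and 13106, that of 6 oligodendrocyte markers 24952 and 20877 against 21517 and 21540, and that of 4 choroid plexus markers 6922 and 5157 against 4737 and 4306.

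Between the P dates, Gfap and Aldh1l1, astrocyte markers, were higher in date 1 by 0.71 ± 0.14 and 0.56 ± 0.14 (adjusted p = 0.0141 and 0.0309 by limma). They were 2 of 7 astrocyte markers tested, of which 4 lay below 0, with a median of -0.12. Of all probes, 7.53% were lower and 6.31% higher in this comparison. Nefm was lower by -1.21 ± 0.15 and Aif1 by -0.75 ± 0.20, and Syp, a synaptic vesicle protein, was higher by 0.78 ± 0.15 (adjusted p = 0.00482, 0.0353 and 0.011 by limma). Of 5 neuronal markers tested, 1 was thus lower and 1 higher, and of 7 microglial markers 1 was lower. The summed astrocyte signal was 13817 and 13106 in P 1 and P 2 and 12369 and 13877 in P 3 and P 4. The part of cell composition and of the number of probes above background in the differences of the ribosomal protein genes was not tested.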

How the data were processed

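Whole brain total RNA of 4 P and 3 NP rats was amplified from an oligo(dT) primer and labelled with biotin, per the labels' protocols. The scanner tables deposited by the authors give each spot's intensity with its local background, per the file headers, beside subtracted and scaled intensities and quality flags. The authors also deposited log2 values, which tracked their own scaled intensities on a log2 scale (r of 0.9985 to 0.9999, medians of -0.07 to 0.05). Their direction matches the scanner values. The ratio of the 2 standard deviations was 0.917 on P 3 and 0.916 on P 4, and 1.01 to 1.05 on the other arrays. Any further adjustment between arrays is unknown. The scanner software and genome build were not given in the sources used here.

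Spot and background intensities were corrected by normexp (offset 50) with limma 3.58.1 in R 4.3.3. Spots with a masked, irregular or contaminated flag then became missing values, and control spots were dropped. The log2 values of the transcript probes were quantile normalized after these steps. Probes above background (no such flag and no near-background flag) on at least 3 of 7 arrays were kept, 29008 of 33849, including 38 of the 39 ribosomal protein probes. Names came from unversioned accessions matched to the RefSeq GRCr8 table (7207 probes, 6046 genes, 5678 with a kept probe). P and NP were compared with lmFit and eBayes over 7 arrays and within header date 1, and the P arrays between dates 1 and 3, with Benjamini-Hochberg adjustment over all probes tested. A call is an adjusted p under 0.05. Lines were also compared with the project entry as a block, and with line and entry crossed. A coefficient was given only where a probe's arrays could estimate it. The code was tested on simulated data.

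Members, lists and tests were chosen with earlier results of these data known. Genes named are the 6 with the smallest p over 7 arrays, all called within date 1 or between the P dates, and the 3 probes with the highest and the 3 with the lowest signal. A few members go unnamed in the text and plots and stay in all counts, medians and fits. Rps27, Rps10, Rpl3, Rpl18 and Rplp1, and the genes of other lists, were named after their values were seen. Alternatives were other background corrections, scalings, filters, variance models and probe rules, the deposited values, blocks and each array left out. Replicates are separate rats.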

Additional observations from a re-analysis of the deposited data

Results flagged for a closer look

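In array P 3, Rpl39, whose protein lines the peptide exit tunnel, read 10.99, while the other P arrays read 10.64, 10.63 and 10.67, a gap large against the range of the 4 values. The P values of 33 genes were examined in this way, where chance gives about 1.6 such gaps, and 1 was found.

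For some genes P minus NP in project entry 2 was above that in entry 1 by the interaction term of the fit. The number of such genes and the share of all probes are given above. Among these genes, the differences between entries were 1.95 for Rps20, 1.72 for Rps6, 1.39 for Rpl32, 1.52 for Rpl4 and 1.09 for Rpl9, in log2. NP 4 is the only NP array of entry 2 and has a date of its own, so a difference between entries cannot be told apart from one of this array or of the dates.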

How the results depend on the processing

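Over 7 arrays, 0 ribosomal protein genes were called lower or higher in 18 of 20 alternatives, and the median stayed between -0.27 and 0.05. The exceptions gave 10 lower with the header date as a block, which compares the lines within date 1 alone (4.07% of all probes lower), and 9 lower without both P arrays of date 3 (7.35% of all probes lower and 4.12% higher). The second of these, the project entry block, the fit of date 1 with the spread of all 7 arrays and the fit without both P arrays of date 1 were added after seeing the data. With a replicate block, 0 genes were called and the median was -0.03. Arrays with the same replicate number deviated together at r of 0.10, 0.06 and 0.02, so the numbers were not taken as pairs. No paired analysis was possible within date 1 or between the P dates because the groups share fewer than 2 numbers.

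Within date 1 the 10 lower calls became 0 with plain background subtraction and 0 with the authors' deposited log2 values, where 0.0415% and 0.0622% of all probes were lower. With an array left out, the median over the genes ran from -0.32 to -0.22, and the calls depended on P 2, as given above. The 12 lower calls between the P dates became 0 with plain subtraction and with the deposited values, where 0% and 0.00346% of all probes were lower. With an array left out, the median between the P dates ran from -0.39 to -0.26, and these calls too depended on P 2. When probes had to be above background on all 7 arrays, 1 of 31 genes was higher, where 9.1% of all 21770 probes were higher. Medians stayed within the spread between arrays, and no called gene changed sign, while the median over 7 arrays was 0.05 without both P arrays of date 1. The cause was not tested. Of the comparisons of single genes with an alternative, 93 kept their side of the threshold and 37 lost the call within date 1, 105 and 39 did so between the P dates, and over 7 arrays 113 kept it and 6 gained a call. Leaving out an array within date 1 or between the P dates leaves 1 array on that side, whose spread is taken from the other.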
